A study of Homo sapiens with 6 samples.

Results

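Nonsense-mediated decay (NMD) factors are described here by 6 genes, UPF1, UPF3A, SMG1, SMG6, CASC3 and MAGOHB, out of 7682 genes in the table of RNA levels and mRNA half-lives. They were picked by name as NMD genes, with earlier results of these data known. NMD destroys mRNAs on which a ribosome stops too early. The RNA helicase UPF1 is recruited to the stalled ribosome, is phosphorylated by the kinase SMG1, and then attracts nucleases, among them the endonuclease SMG6, which cuts the mRNA near the stop codon. UPF3A and its paralog UPF3B link UPF1, through UPF2, to the exon junction complex. That complex is a protein mark left on spliced mRNA, and CASC3 and MAGOHB are 2 of its subunits. Several NMD factor mRNAs are known to be NMD targets themselves.

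The cells were HEK293, a human embryonic kidney line, either mock transfected or transfected with siRNA against MOV10, an RNA helicase that the study's title ties to the decay of UPF1 target mRNAs. Both groups received 4-thiouridine (4sU), a nucleoside that marks newly made RNA, at 700 µM for 60 min. Libraries of poly(A)+ RNA were made from 3 fractions of each group: total RNA, 4sU-labelled RNA made during the label, and the unlabelled flow-through. GEO lists 1 sample for each of the 6 groups, while the table has 2 replicate columns for each. Whether the paired columns are separate cultures is not stated in the sources used here, so the p-values measure only the spread between these columns, which may be technical. With 2 columns against 2, an exact permutation test of a single gene cannot go below p = 0.333, so the tests were limma models over all genes. All cells are of 1 line, and the sources used here do not give the siRNA sequence.

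MOV10 itself stood at 13.1 and 14.6 in the mock columns of total RNA and at 3.53 and 3.64 in the siRNA columns, 3.86-fold lower by the group means. Of 8 genes fixed as markers of HEK293 and its lineages, 3 (VIM, NEFL and LIN28B) were among the table's genes, while KRT8, KRT18, NEFM, PAX2 and SOX2 were not. None of 8 markers of blood, liver, fibroblast, endothelium, muscle or astrocyte was. Absence does not show that a gene was not expressed, as NMD pathway genes such as RBM8A and ETF1 were absent too. The expression values are the authors' normalised signal with no unit named, so depth is unknown and levels are compared between conditions, never between genes. Spearman correlations between the paired columns of a group, over genes, were 0.993 to 0.996. Changes were tested in the 6064 genes whose total RNA averaged at least 5 in both conditions, and all 6 NMD genes were among them. A change is a difference of log2(value + 1), or of log2 half-life, relative to the median gene of each column, with siRNA minus mock as its sign, and it understates the change of low values. Before that centring the median gene moved by 0.14 in labelled RNA and by 0.20 in half-life. A gene is called changed at a Benjamini-Hochberg adjusted p under 0.05 over the 6064 genes.

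SMG1 and UPF3A were the NMD genes whose RNA rose when MOV10 was depleted. SMG1 rose in total and flow-through RNA, and UPF3A in labelled and flow-through RNA. UPF1, SMG6, CASC3 and MAGOHB passed no test in any fraction. In total RNA 1 of the 6 genes was called, where 27.2% of all genes were. In labelled RNA 1 of 6 was called against 21.4% of all genes, and in flow-through RNA 2 of 6 against 58.6%. No half-life of the 6 passed the limma test, against 6.15% of all genes (1.88% longer and 4.27% shorter), and 2 (SMG6 and MAGOHB) had an unadjusted p under 0.05. These shares do not set the 6 genes apart from the rest of the table. For the 6 genes the median change was 0.16 in total RNA, 0.07 in labelled RNA, 0.02 in flow-through RNA and 0.07 in half-life, beside medians of 0.01, 0.00, 0.03 and 0.00 over all genes.

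**Figure D1:**
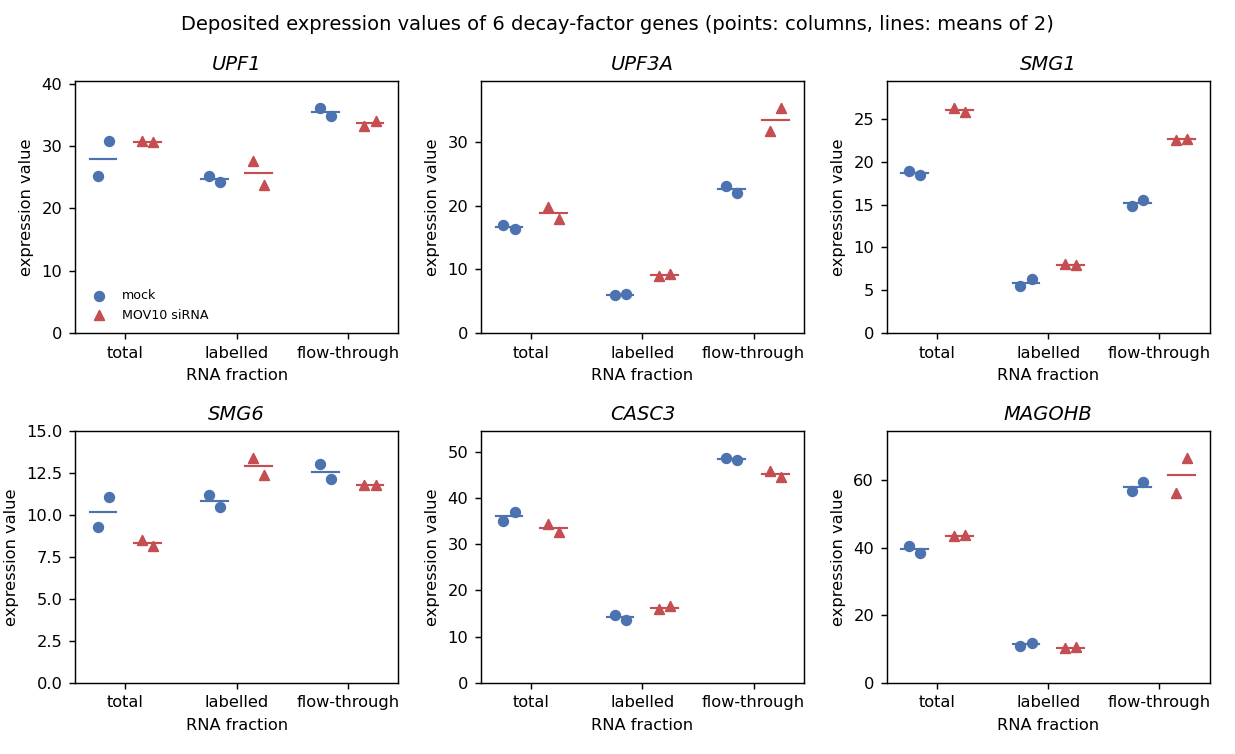
Authors' normalised expression values (vertical axes, from 0, no unit named, a separate scale in each panel) of the 6 NMD genes in total, labelled and flow-through RNA. Points are single columns and lines are means of 2 columns; SMG1 is higher after siRNA in all 3 fractions, while the UPF1 columns lie close together.

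UPF1 is the ATP-dependent helicase on which all branches of NMD depend, and the study set it beside MOV10. Its total RNA was 25.2 and 30.8 in mock cells, against 30.8 and 30.6 with siRNA. Its labelled RNA was 25.2 and 24.2 in mock cells, against 27.5 and 23.8 with siRNA, and its flow-through RNA 36.1 and 34.8 against 33.2 and 34.1. The 1st mock column is the low value in total RNA, and the groups overlap in total and labelled but not in flow-through RNA. The change was 0.16 in total RNA (SE 0.08, limma p after Benjamini-Hochberg adjustment = 0.165), -0.09 in labelled RNA (SE 0.09, adjusted p = 0.526) and -0.06 in flow-through RNA (SE 0.04, adjusted p = 0.302). The total RNA change was called once the 2nd mock column was left out (0.25, limma adjusted p = 0.0405). The half-life of UPF1 mRNA was 515 and 535 min in mock cells, against 470 and 768 min with siRNA, so the siRNA columns enclosed the mock columns. Divided by the median gene of its own column, it was 0.694 and 0.661 in mock cells, against 0.616 and 0.746 with siRNA. UPF1 mRNA was thus shorter-lived than the median mRNA in every column. Its half-life change was 0.00 with an SE of 0.11. Shifts several times that SE, in either direction, could also have been missed. In simulated data only 39% of half-life changes of 0.5 were called.

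UPF3A, an adaptor between UPF2 and the exon junction complex that can dampen or support NMD, rose in the 2 separated fractions. Labelled UPF3A RNA was 5.95 and 6.11 in mock cells, against 9.03 and 9.33 with siRNA. The means were 6.03 ± 0.114 and 9.18 ± 0.215 (SD, n = 2 columns each), 1.52-fold higher. Flow-through UPF3A RNA went from 23.1 and 22.0 to 31.7 and 35.3, from 22.5 ± 0.814 to 33.5 ± 2.60 (SD, n = 2 columns each), 1.49-fold higher. The groups did not overlap in either fraction. The centred changes were 0.40 in labelled RNA (SE 0.09, limma p after Benjamini-Hochberg adjustment = 0.00939) and 0.57 in flow-through RNA (SE 0.06, adjusted p = 0.000887). Both calls held with each column left out in turn, with changes of 0.34 to 0.46 and 0.50 to 0.63. The total RNA values were 17.01 and 16.3 in mock cells, against 19.9 and 18.0 with siRNA, also without overlap, but this change did not pass the test (0.19, SE 0.08, limma adjusted p = 0.101). UPF3A half-lives were 1087 and 1035 min in mock cells, against 1134 and 1633 min with siRNA, or 1.47 and 1.28 against 1.48 and 1.59 times the median gene. That change was 0.16 (SE 0.11, limma adjusted p = 0.385). The Ensembl-based GENCODE annotation names 3 UPF3A pseudogenes, whose reads may have been counted to UPF3A.

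SMG1, the phosphatidylinositol 3-kinase-related kinase that phosphorylates UPF1, was the only one of the 6 called in total RNA. Its total RNA was 18.9 and 18.4 in mock cells, against 26.3 and 25.8 with siRNA, from 18.7 ± 0.371 to 26.0 ± 0.311 (SD, n = 2 columns each), 1.39-fold higher. Its flow-through RNA was 14.8 and 15.5 in mock cells, against 22.5 and 22.7 with siRNA, 1.49-fold higher. The gap between the groups was several times the spread within them in both fractions. The changes were 0.48 in total (SE 0.08, limma p after Benjamini-Hochberg adjustment = 0.000436) and 0.56 in flow-through RNA (SE 0.06, adjusted p = 0.000594). They were 0.42 to 0.54 and 0.52 to 0.61, and still called, with each column left out in turn. Labelled SMG1 RNA was 5.50 and 6.26 in mock cells, against 8.03 and 7.97 with siRNA, also without overlap, but relative to the median gene its change missed the threshold (0.25, SE 0.10, limma adjusted p = 0.0892). It passed without centring (0.39, limma adjusted p = 0.00378) and without the 2nd mock column (0.38, limma adjusted p = 0.0341). SMG1 half-lives were 1165 and 1143 min in mock cells, against 1242 and 1717 min with siRNA, or 1.57 and 1.41 against 1.62 and 1.67 times the median gene (change 0.15, SE 0.10, limma adjusted p = 0.409). The annotation names 7 SMG1 pseudogenes (SMG1P1 to SMG1P7), which arose by duplication of the gene. Because they are near-copies, SMG1 values are uncertain to the extent that reads were split between them.

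SMG6, the endonuclease, went the other way in total RNA without passing the test. Its total RNA was 9.31 and 11.1 in mock cells, against 8.50 and 8.18 with siRNA (change -0.24, SE 0.09, limma p after Benjamini-Hochberg adjustment = 0.0623). Without the 1st mock column this was -0.31 and called (limma adjusted p = 0.0372). Labelled SMG6 RNA was 11.2 and 10.5 in mock cells, against 13.4 and 12.4 with siRNA, and flow-through RNA 13.1 and 12.1 against 11.8 and 11.8. The siRNA columns were thus above the mock columns in labelled RNA and below them in the other fractions, all by amounts that missed the threshold (labelled 0.09 and flow-through -0.07, limma adjusted p = 0.452 and 0.352). The ratio of labelled to total RNA was 1.21 and 0.947 in mock cells, against 1.58 and 1.52 with siRNA. SMG6 half-lives were 438 and 455 min in mock cells, against 356 and 534 min with siRNA, or 0.591 and 0.562 against 0.466 and 0.519 times the median gene. Relative to the median gene both siRNA columns were lower, by -0.23 (SE 0.10, unadjusted p = 0.0495, limma adjusted p = 0.205).

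CASC3, the exon junction subunit also called MLN51, stayed within small differences in all 3 fractions. Total RNA was 35.0 and 37.0 in mock cells, against 34.3 and 32.7 with siRNA, labelled RNA 14.7 and 13.6 against 15.9 and 16.5, and flow-through RNA 48.7 and 48.3 against 45.8 and 44.4. The groups did not overlap in any of them, with the siRNA columns lower in total and flow-through RNA and higher in labelled RNA. None of these differences passed the test (changes -0.08, 0.05 and -0.08, SE 0.07, 0.08 and 0.04, limma p after Benjamini-Hochberg adjustment = 0.417, 0.70 and 0.142). CASC3 half-lives were 1159 and 1281 min in mock cells, against 1095 and 1420 min with siRNA. Against the median gene they were 1.56 and 1.58 in mock cells, against 1.43 and 1.38 with siRNA (change -0.16, SE 0.09, limma adjusted p = 0.314).

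MAGOHB, which encodes a protein nearly identical to the exon junction subunit MAGOH, had the longest-lived mRNA of the 6. Its total RNA was 40.6 and 38.5 in mock cells, against 43.4 and 43.7 with siRNA (change 0.16, SE 0.07, limma p after Benjamini-Hochberg adjustment = 0.133), and this was called without the 1st mock column (0.23, limma adjusted p = 0.0346). Labelled MAGOHB RNA was 10.8 and 11.9 in mock cells, against 10.4 and 10.5 with siRNA. It was the only one of the 6 with both siRNA columns below both mock columns in labelled RNA, at -0.25 (SE 0.09, limma adjusted p = 0.0737), called without the 1st mock column (-0.35, limma adjusted p = 0.0247). Flow-through MAGOHB RNA was 56.7 and 59.6 in mock cells, against 56.3 and 66.7 with siRNA (change 0.09, limma adjusted p = 0.36). The 2nd siRNA column is the high one there, and with it alone on the siRNA side the change was 0.20 (limma adjusted p = 0.037). MAGOHB half-lives were 1844 and 1834 min in mock cells, against 2055 and 3366 min with siRNA, or 2.48 and 2.27 against 2.69 and 3.27 times the median gene. The change of 0.32 was the largest half-life change of the 6 in either direction, but it did not pass the test (SE 0.13, unadjusted p = 0.042, limma adjusted p = 0.187). MAGOH is not among the genes analysed here, and reads shared between the pair were not separated.

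**Figure D2:**
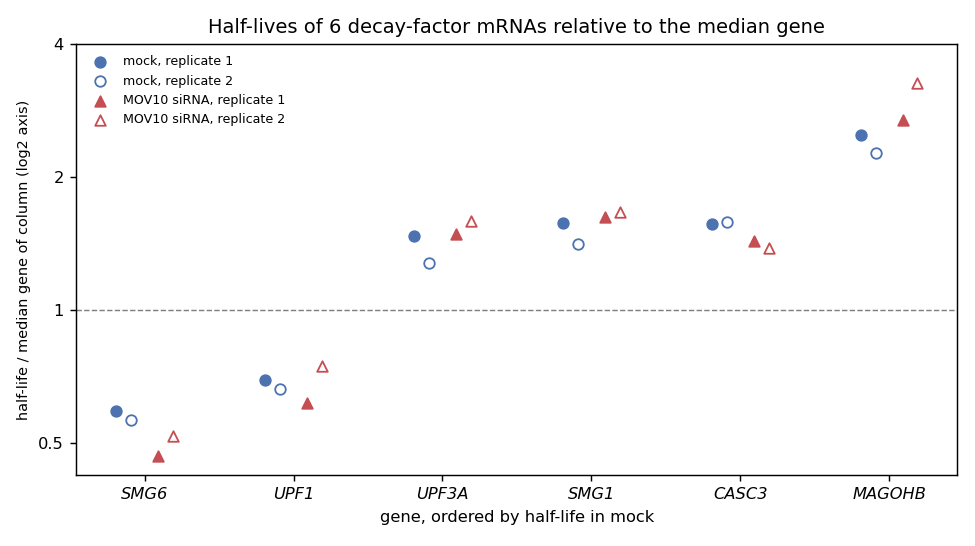
Half-life of the 6 NMD mRNAs divided by the median gene of the same column (log2 axis), with genes in the order of their mock half-lives along the horizontal axis and single columns as points. SMG6 and UPF1 lie below the median gene in all 4 columns and the other 4 genes above it.

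Half-lives put the 6 mRNAs into 3 ranges. In mock cells SMG6 was shortest with a mean of 446 min, at percentiles 25.8 and 24.4 of all genes in its columns, followed by UPF1 with 525 min (percentiles 32.0 and 30.5). UPF3A (1061 min), SMG1 (1154 min) and CASC3 (1220 min) followed, of which SMG1 and CASC3 overlapped between columns. MAGOHB was longest with 1839 min, at percentiles 93.1 and 90.7. The order was SMG6, UPF1, CASC3, UPF3A, SMG1 and MAGOHB after siRNA, with means of 445, 619, 1257, 1384, 1479 and 2711 min. There the 2 columns of a condition differed more, since the median gene had 764 min in the 1st siRNA column and 1030 min in the 2nd, against 742 and 810 min in mock. By ranges over columns, SMG6 overlapped UPF1, and CASC3, UPF3A and SMG1 overlapped their neighbours. Within each siRNA column, however, the order was the same, and MAGOHB lay at percentiles 94.5 and 97.8. Among the 6, the 2 shortest-lived mRNAs thus encode UPF1 and the nuclease, and the longest-lived an exon junction subunit. This order is not a rule for exon junction genes. EIF4A3, a core gene of that complex outside the 6, stood at 407 min in the 1st mock column and 445 min in the 2nd. Both values lie below those of SMG6 and UPF1 in the same columns, unlike the values of CASC3 and MAGOHB. With siRNA EIF4A3 stood at 431 and 571 min, above SMG6 and below UPF1 in the same columns. The ratio of labelled to total RNA, one of the inputs to the half-life, was 0.777 to 0.998 for UPF1 and 0.24 to 0.31 for MAGOHB over the 4 columns.

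Changes of the 2 separated fractions were then set against each other, since more RNA in both at once and more RNA in one of them are different measurements. These fits treated all columns as independent. Fractions of the same replicate may come from the same RNA, and the SE and p-values below do not take such pairing into account. The labelled change minus the flow-through change passed for none of the 6 (10.4% of all genes passed, 5.92% higher and 4.47% lower), with 2 (SMG1 and MAGOHB) at an unadjusted p under 0.05. It was -0.31 for SMG1 (limma p after Benjamini-Hochberg adjustment = 0.126), -0.34 for MAGOHB (SE 0.13, adjusted p = 0.121) and -0.17 for UPF3A (adjusted p = 0.319). The corresponding values for SMG6, CASC3 and UPF1 were 0.16, 0.13 and -0.03 (adjusted p = 0.303, 0.303 and 0.891). A comparison added after the values were seen took the flow-through change minus the total RNA change, and 1 of 6 passed against 11.9% of all genes (6.28% higher and 5.62% lower). That gene was UPF3A, with 0.38 (SE 0.10, limma adjusted p = 0.0467). Its ratio of flow-through to total RNA was 1.36 and 1.35 in mock cells, against 1.59 and 1.97 with siRNA. The call was lost whichever replicate of either condition was left out of both fractions (0.25 to 0.50, limma adjusted p up to 0.351). The same comparison gave -0.21 for UPF1 (adjusted p = 0.169), 0.17 for SMG6 (adjusted p = 0.309) and 0.09 for SMG1 (adjusted p = 0.557).

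Total RNA did not always lie between its separated fractions, as a mixture of them on 1 common scale would. SMG1 total RNA was above both fractions in all 4 column sets, which held for 2.19% to 5.16% of all genes per set. SMG6 total RNA was below both in the 1st mock set and both siRNA sets, as it was for 14.1% to 19.5% of genes per set. The fractions need not share a scale. For the recomputed half-lives, the weights fitted to make total RNA were 0.0995 to 0.122 for labelled and 0.631 to 0.711 for flow-through RNA. With such weights total RNA can lie below both fractions but not above both. A recomputed half-life uses the labelled and flow-through values of its gene, and total RNA enters only through the fit of the weights. Whether the high total RNA of SMG1 bears on its deposited half-lives was not tested.

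**Figure D3:**
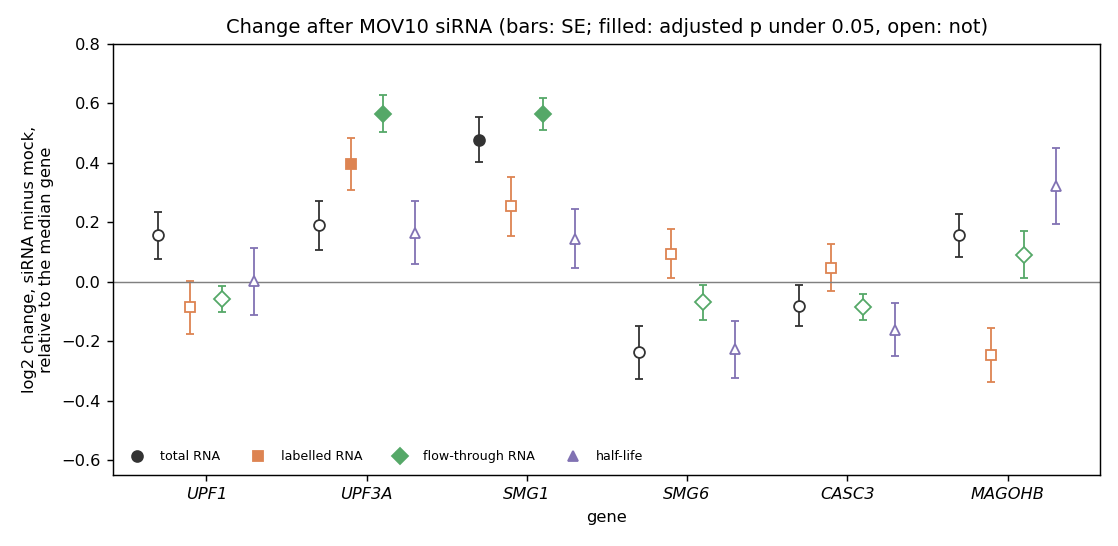
Change of the 6 NMD genes on MOV10 siRNA (vertical axis, log2, siRNA minus mock, relative to the median gene) in total, labelled and flow-through RNA and in half-life, with bars of 1 SE from the limma fit. Filled markers passed the test: SMG1 in total and flow-through RNA, and UPF3A in labelled and flow-through RNA.

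The annotated 3' UTRs of the 6 mRNAs differ in length. In GENCODE version 29 on GRCh38, a later build than the hg18 of the study, the longest 3' UTR of SMG1 had 4716 bases, longer than in 91.4% of the 5662 genes with one. The others had 1719 (UPF1), 900 (UPF3A), 1649 (SMG6), 1778 (CASC3) and 2085 bases (MAGOHB), near the median of 1345 for UPF1, SMG6 and CASC3. The 7-base sequence TACTGCA, picked in an earlier look at these same data, was searched on the transcript strand only and occurred in 11.7% of the 3' UTRs. Among the 6 genes it occurred once in SMG1, starting 2599 bases after the stop codon, and once in CASC3, starting 1285 bases after it. They are shown with the 7 bases in capitals because they are the 2 occurrences in these genes.
SMG1: agcctgctcctTACTGCActctggacaag
CASC3: gagattcctatTACTGCAgtacatacgtc
The flanks of the pair differ. SMG1 rose in RNA level and CASC3 passed no test, and neither passed the half-life test. A match of these letters is a description, not a binding site. The same annotation lists transcripts it classes as NMD substrates for MAGOHB (5), CASC3 (2) and SMG1 (1), and none for UPF1, UPF3A and SMG6. Over all genes 47.3% had at least 1, and the table does not separate isoforms.

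UPF2 and UPF3B complete the UPF core, and both moved. UPF2, the scaffold between UPF1 and the UPF3 proteins, had total RNA of 16.0 and 12.5 in mock cells, against 7.22 and 8.75 with siRNA (change -0.74, SE 0.12, limma p after Benjamini-Hochberg adjustment = 0.000714). Its labelled RNA was 12.7 and 15.2 against 15.7 and 20.4, and its flow-through RNA 14.3 and 13.6 against 13.4 and 15.0, neither of which passed the test (0.21 and 0.04, limma adjusted p = 0.263 and 0.669). UPF2 total RNA fell while the separated fractions were not called, and it lay below both of them in the 2nd mock set as well as in both siRNA sets. UPF3B followed UPF3A. Its labelled RNA was 8.15 and 6.99 in mock cells, against 12.1 and 12.7 with siRNA (0.51, SE 0.08, limma adjusted p = 0.00231), and its flow-through RNA 33.8 and 30.7 against 50.7 and 52.3 (0.68, SE 0.05, limma adjusted p = 0.000355). Total UPF3B RNA was 24.1 and 22.3 against 26.9 and 24.2 (0.15, limma adjusted p = 0.193). The 4 calls on UPF3A and UPF3B in labelled and flow-through RNA and that on UPF2 in total RNA held with each column left out in turn. Half-lives of the core were not called: UPF3B had 1197 and 1300 min against 1383 and 1833 min, and UPF2 431 and 364 min against 351 and 421 min.

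EIF4A3, the helicase that clamps the exon junction complex onto RNA, rose where its partners CASC3 and MAGOHB did not pass the test. Its labelled RNA was 67.5 and 62.5 in mock cells, against 95.0 and 94.6 with siRNA (0.40, limma p after Benjamini-Hochberg adjustment = 0.00527), and its flow-through RNA 105 and 103 against 133 and 135 (0.38, adjusted p = 0.000462). Its total RNA rise of 0.19 (adjusted p = 0.0377) was lost without the 2nd mock column and without either siRNA column. Of the 5 complex partners past the expression minimum, ACIN1, SAP18, SRRM1 and PNN rose in flow-through RNA, where 31.7% of all genes rose. The ACIN1 change there was 0.34 (adjusted p = 0.0013). In labelled RNA ACIN1 (0.30, adjusted p = 0.0286) and PYM1, which takes the complex apart during translation (0.31, adjusted p = 0.0155, listed as WIBG), rose. Of these partner calls only that on ACIN1 in flow-through RNA held with each column left out in turn. SAP18 was lost without the 1st mock column, SRRM1 without either mock column or the 2nd siRNA column, and PNN without the 1st mock or the 2nd siRNA column. In labelled RNA, ACIN1 was lost without the 2nd mock or 1st siRNA column, and PYM1 without the 2nd mock column. PNRC2, a decapping cofactor of UPF1 and the other decay effector in the table beside SMG6, passed no test, and its half-lives were 161 and 166 min in mock cells, against 169 and 241 min with siRNA.

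GSPT1, the translation termination factor eRF3a that recruits UPF1 to the terminating ribosome, was the pathway gene whose half-life was called. Its half-lives were 1085 and 1197 min in mock cells, against 585 and 810 min with siRNA (change -0.92, SE 0.09, limma p after Benjamini-Hochberg adjustment = 0.00524). Its total RNA fell from 58.0 and 58.9 to 36.9 and 36.8 (-0.63, adjusted p = 1.79e-05), and its flow-through RNA from 83.3 and 81.5 to 51.0 and 50.1 (-0.68, adjusted p = 0.000167). Its labelled RNA was 31.4 and 29.2 in mock cells, against 37.7 and 37.4 with siRNA (0.17, adjusted p = 0.144). The labelled minus flow-through change was 0.85 (SE 0.07, adjusted p = 0.000253), so the 2 fractions of GSPT1 moved apart while those of the 6 NMD genes were not shown to. The GSPT1 half-life change was -0.73 without centring and then missed the threshold (adjusted p = 0.784), under which only 7 genes of the table were called. GSPT1 has an annotated 3' UTR of 4991 bases, near the 4716 of SMG1, and these letters do not hold TACTGCA.

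**Figure D4:**
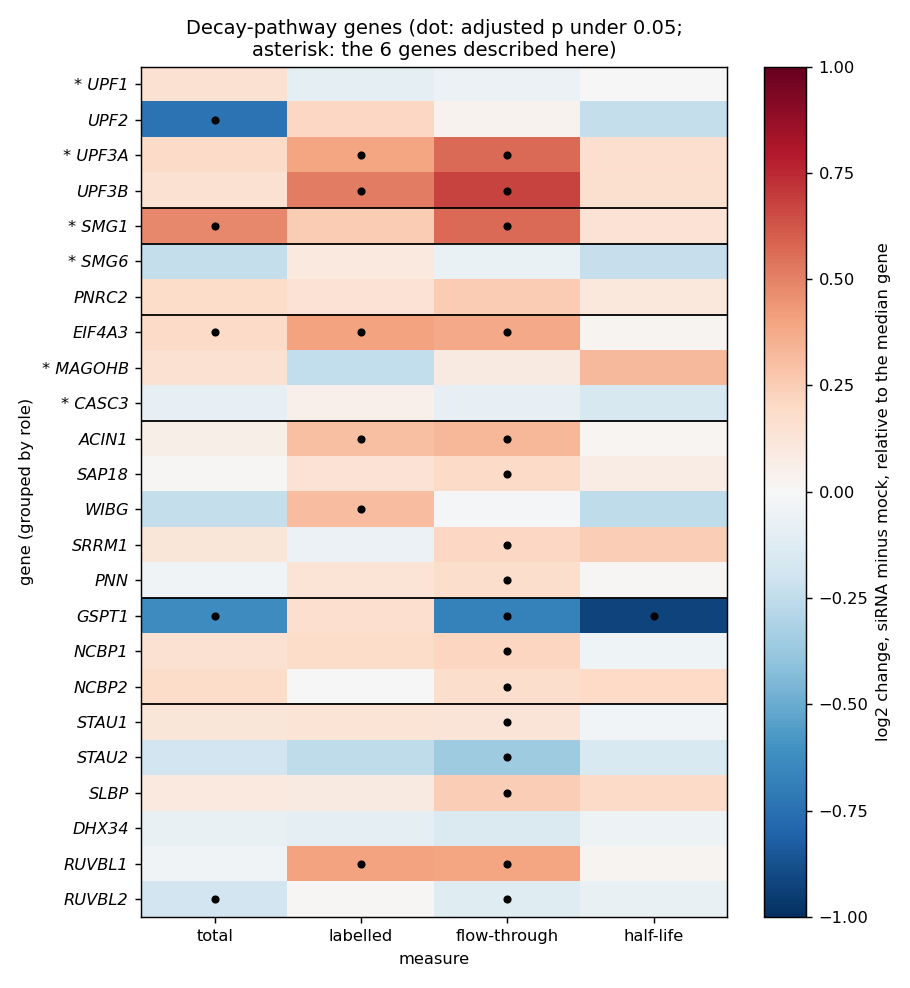
Changes of the NMD pathway genes past the expression minimum (rows) in total, labelled and flow-through RNA and in half-life (columns), as log2 siRNA minus mock relative to the median gene (red higher, blue lower), with dots where the test was passed and asterisks on the 6 NMD genes. UPF3A, UPF3B, EIF4A3, RUVBL1 and SMG1 stand out as higher in flow-through RNA. UPF2 stands out as lower in total RNA, and GSPT1 as lower in total and flow-through RNA and half-life.

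Over the whole pathway, 25 of 38 listed genes were among the table's genes and 24 passed the expression minimum, the 6 NMD genes included. In labelled RNA 6 rose and 0 fell by the test, where 9.88% of all genes rose and 11.5% fell. In flow-through RNA 13 rose and 3 (GSPT1, STAU2 and RUVBL2) fell, where 31.7% rose and 26.8% fell. Beside the genes above and RUVBL1, the 13 hold the cap-binding proteins NCBP1 and NCBP2, the Staufen protein STAU1 and the histone mRNA binder SLBP. In total RNA 2 rose (SMG1 and EIF4A3) and 3 fell (UPF2, GSPT1 and RUVBL2), where 12.9% of all genes rose and 14.3% fell. In half-life 0 rose and 1 (GSPT1) fell, against 1.88% and 4.27% of all genes. For the 24 genes the median change was 0.08 in total RNA, 0.14 in labelled RNA, 0.17 in flow-through RNA and 0.02 in half-life. With each column left out in turn, 9 of the 16 flow-through calls, 4 of the 6 labelled calls and 3 of the 5 total RNA calls held in all 4 fits. Of the genes not yet given, NCBP1 was lost without the 1st mock column, NCBP2 and RUVBL2 (flow-through) without either mock or the 2nd siRNA column, RUVBL2 (total) without the 2nd mock or either siRNA column, and STAU1 in each fit. In flow-through minus total, 5 of the 24 were called, all higher (UPF3A, UPF2, UPF3B, ACIN1 and RUVBL1), and 0 of these held in all 4 fits. In that comparison, which was added after the values were seen, 6.28% of all genes were called higher and 5.62% lower. Outside the genes described so far, the half-life changes at the ends of each list were -0.25 for PYM1, 0.24 for SRRM1, 0.20 for NCBP2, -0.15 for STAU2 and 0.19 for SLBP, none of them called. RUVBL1, an ATPase that assembles SMG1-family kinases, rose in labelled (0.41, limma p after Benjamini-Hochberg adjustment = 0.00518) and flow-through RNA (0.39, adjusted p = 0.000451). STAU2, a double-stranded RNA-binding protein of the related Staufen decay, fell in flow-through RNA (-0.36, adjusted p = 0.00817). Without centring the labelled changes of all genes shift upward, so that 83.1% of labelled calls are rises against 46.1% with it.

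Genes whose values over the 12 expression columns most resembled each NMD gene were picked by Euclidean distance of centred log2 values. Total RNA is among these columns and half-lives are computed from the same fractions, so likeness in either follows in part from the choice. The nearest to UPF1 was CIRBP, a cold-inducible RNA-binding protein, at 0.17 where the median gene lay at 1.58, and TBX18 and CRAMP1L followed. CIRBP was deposited with half-lives of 465 and 504 min in mock cells, against 457 and 714 min with siRNA. UPF3A was nearest to NUCB2 (0.24), FAM82A2 and THOC1, and SMG1 to AKAP11 (0.29), MYO5A and VPS13A. AKAP11, an anchor protein of protein kinase A, had total RNA of 10.6 and 11.0 in mock cells, against 16.9 and 16.5 with siRNA. SMG6 was nearest to GABPB1 (0.18), BAK1 and STK32C, CASC3 to CD99L2 (0.13), BAP1 and FARSA, and MAGOHB to ACTR2 (0.26), GBAS and PPT2. None of these is a gene of the NMD lists. ACTR2, a subunit of the Arp2/3 actin nucleator, was deposited at half-lives of 1879 and 1951 min in mock cells, against 2209 and 2876 min with siRNA.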

How the data were processed

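Per the submitters' processing notes, the authors aligned reads to hg18 with TopHat2 2.06. The sources used here do not name the tool that made the expression values, the authors' normalised signal per gene. Half-lives, the other unit, were computed by the authors with a published method, per the labels' protocols. Their deposited header names no unit. Minutes were taken because half-lives recomputed in minutes from the 3 fractions, with first-order decay over 60 min, had medians over all genes of 579 and 610 in mock and 509 and 426 in siRNA columns, against deposited medians of 657, 713, 668 and 900. The scales are of the same order, but the recomputed medians were lower with siRNA and the deposited ones were not, so half-life changes are read relative to the median gene. The order of genes was alike (Pearson r of log2 values 0.968 to 0.982).

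From these values limma 3.58.1 in R 4.3.3 (moderated variances with a mean-variance trend) compared 2 siRNA with 2 mock columns on log2(value + 1) or log2 half-life, centred on the median gene per column. It used the 6064 genes with mean total RNA of 5 or more in both conditions. The difference between labelled and flow-through changes was an interaction term, and that between flow-through and total changes was added after the data were seen. Neither fit modelled a pairing of fractions from the same replicate of a condition. The tests were tried on simulated data of 6064 genes, 200 of them changed, far fewer than the 3551 called in flow-through RNA. Changes of 0.5 were recovered in 64% of genes for total, 50% for labelled and 63% for flow-through RNA and 39% for half-life. Of those calls 3.68%, 1.42%, 1.27% and 4.62% were false. Recovery was 41% for labelled minus flow-through and 52% for flow-through minus total. There 7.75% and 6.62% of the calls were false, above the threshold of 0.05. Low values showed no whole-read steps from which depth could be recovered.

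The 6 genes, the pathway lists and the tests were chosen with earlier results of these data known. Named are the 6 genes, MOV10, the 3 nearest genes to each, and of each list the genes that passed a test and the largest rise and fall in half-life. Alternatives were another pseudocount, no floor or one of 20, no centring, no trend, a block on column number, recomputed half-lives and leaving out each column. In the last, the lone column of a group is assumed to vary like the paired columns of the other. Sequences and lengths of 3' UTRs are the longest per gene in GENCODE 29, matched by symbol, for 93.4% of genes.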

Additional observations from a re-analysis of the deposited data

Results flagged for a closer look

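In 3 genes of the UPF core the flow-through change differed from the total RNA change by a test of the difference itself (limma interaction, Benjamini-Hochberg adjusted p over 6064 genes). The difference was 0.38 for UPF3A (adjusted p = 0.0467), 0.77 for UPF2 (adjusted p = 0.0276) and 0.52 for UPF3B (adjusted p = 0.017), with flow-through higher in each. UPF1, the other core gene, had -0.21 and was not called (adjusted p = 0.169). Only the 6 NMD genes, UPF2 and UPF3B were considered for this flag, while 11.9% of all genes were called. Outside that choice, RUVBL1 and ACIN1 of the pathway lists and DDIT3, ATF3, CARS and NAT9 of the known NMD targets were also called higher. TRIB3 was called lower. For UPF3A the call was lost with any 1 replicate of a condition left out of both fractions. For UPF2 and UPF3B it was lost without the 1st mock columns (0.59 and 0.49) and without either siRNA replicate, and held without the 2nd mock columns.

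The labelled and flow-through changes differed by 0.85 for GSPT1 (adjusted p = 0.000253), which held in all 4 fits with columns left out. For CDKN1A, the cell cycle inhibitor p21, they differed by -0.41 (adjusted p = 0.022), and this call was lost in all 4 of those fits (-0.51 to -0.31).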

How the results depend on the processing

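Of 342 values of the 6 genes under alternatives, 309 kept direction and side of the threshold, 11 newly passed, 7 no longer passed and 15 turned direction. The calls on UPF3A (labelled, flow-through) and SMG1 (total, flow-through) held wherever tested. A floor of 20 drops UPF3A, SMG1 and SMG6, so it gives them no value and left 0 of the 6 genes called in total, labelled and flow-through RNA and in flow-through minus total. That fit tested 2603 genes in place of 6064 and called 663 in total (1651 with the floor of 5), 572 in labelled (1299) and 1667 in flow-through RNA (3551), 157 in half-life (373), 252 in labelled minus flow-through (630) and 463 in flow-through minus total (722). Without centring the calls over 6064 genes were 1974 in labelled RNA (2 of the 6 genes), 7 in half-life, 1028 in labelled minus flow-through (93.1% of them higher, against 57.0%) and 393 in flow-through minus total. With a column left out they ranged over 856 to 1765 in total, 826 to 1145 in labelled, 49 to 248 in half-life, 127 to 464 in labelled minus flow-through and 39 to 489 in flow-through minus total. The 6 genes then had 1 to 3 calls in total, 1 to 2 in labelled and 2 to 3 in flow-through RNA, and 0 in flow-through minus total, where no floor, no centring and no trend each also left 0. Without trend 2 were called in total RNA.

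Column numbers are not stated to pair samples: deviations of same-numbered columns correlated at 0.05, -0.04, 0.11 and -0.07 in total, labelled, flow-through and half-life. A replicate block on the number gave 139 half-life calls, and 3 of the 6 genes called in total RNA and 2 in labelled RNA, adding UPF3A (adjusted p = 0.044) and SMG6 (0.027) in total and MAGOHB (0.0473) in labelled RNA.

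Small uncalled changes turned direction. Without centring these were UPF1 in labelled RNA (0.05) and in labelled minus flow-through (0.12), and CASC3 in half-life (0.033). With no floor it was CASC3 in flow-through minus total (0.0047). With single columns left out, UPF1 ranged over -0.198 to 0.0255 in labelled RNA, -0.138 to 0.140 in half-life and -0.150 to 0.0925 in labelled minus flow-through, and MAGOHB over -0.0213 to 0.204 in flow-through RNA. In flow-through minus total, SMG1 ranged over -0.0145 to 0.186, CASC3 over -0.0094 to 0.0027 and MAGOHB over -0.187 to 0.0577. The causes were not tested. With unknown depth no counting error could be given, and 2 columns a group leave changes the size of those of UPF1 undecided.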

Other observations

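Transcripts known from other work as NMD targets did not move one way. Of 22 listed, 13 were among the table's genes, and all 13 passed the expression minimum. The others, GADD45A and GAS5 among them, were absent, so nothing can be said of them. In labelled RNA 3 rose (DDIT3, CARS and NAT9) and 3 fell (GADD45B, UPP1 and CDKN1A) by the limma test, in flow-through RNA 5 rose (DDIT3, CARS, NAT9, ATF4 and ASNS) and 3 fell (GADD45B, UPP1 and TRIB3), and in total RNA 1 rose (ASNS) and 2 fell (ATF3 and GADD45B). Over all genes 21.4% were called in labelled, 58.6% in flow-through and 27.2% in total RNA. DDIT3, a stress-induced transcription factor, had labelled RNA of 166 and 146 in mock cells, against 297 and 284 with siRNA (0.75, limma p after Benjamini-Hochberg adjustment = 0.0005). Its total RNA was 43.8 and 45.7 against 50.8 and 45.7, and that change was not called (0.12, adjusted p = 0.215). GADD45B, a growth arrest gene, had total RNA of 25.5 and 27.9 in mock cells, against 18.0 and 17.8 with siRNA (-0.53, adjusted p = 0.000147).

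No half-life of the 13 passed the limma test, and 1 (CDKN1A) had an unadjusted p under 0.05. CDKN1A half-lives were 137 and 165 min in mock cells, against 191 and 270 min with siRNA (0.40, adjusted p = 0.0651). Its labelled RNA fell from 76.3 and 67.8 to 52.3 and 52.9 (-0.58, adjusted p = 0.000934). With each column left out in turn, all 8 flow-through calls and all 3 total RNA calls held, as did the labelled calls of DDIT3, CARS and CDKN1A. The labelled calls of GADD45B, UPP1 and NAT9 did not: GADD45B was lost without the 2nd siRNA column, UPP1 without the 2nd mock column, and NAT9 without either of these.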
